A study of Atriplex lentiformis with 9 samples.

Results

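TCX3, TCX6 and TSO1 are the entries of this root data set that carry the name of an Arabidopsis protein of the tesmin/TSO1-like CXC family. They were chosen by name, as the entries called TSO1 or TCX followed by a number, and make up 3 of the 5164 entries measured. TCX3 drew attention because it had no read in the 15% compost libraries, so its own values are given as a description with no test. The names of TCX6 and TSO1, not their values, put them here, and their comparisons between treatments were tested. Other proteins of the family, such as TCX2 and TCX5, have no entry under these names among the 5164. Whether they share or mirror the loss of TCX3 could not be looked at.

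Roots were taken from quailbush (Atriplex lentiformis), a shrub that tolerates salt and is planted on mine waste, grown for 11 weeks in mine tailings mixed with 10% compost (TC10), 15% compost (TC15) or 20% compost (TC20). All groups share the tailings, and no group without tailings or without compost was used here. There were 9 plants, 3 per treatment. The file labelled TC10 plant 5 is not used, since its column header names TC15 plant 6 and all 4995 of its entries equal those of that plant, which leaves 8 libraries for expression (TC10 2, TC15 3, TC20 3). Whole roots were sampled, so fewer cells of a type and less RNA per cell cannot be told apart. Values are normalised reads, that is, read counts divided by 1 size factor per library, and are not divided by transcript length, so levels are compared between libraries and not between genes. The 8 libraries held 3030394 to 4752637 recovered reads and list 4995 to 5055 entries each. Of the root markers, PHO1, which loads phosphate into the xylem, had 810 to 4692 normalised reads, the peroxidase PER64 641 to 2847 and the endodermal factor MYB36 381 to 852. Of the green-tissue markers, the light-harvesting protein CB4B had 18.4 to 120 and the photosystem subunit PSAK 0.933 to 19.4, with their highest values in TC10 plant 2 and TC15 plant 10. The root markers SCR, SMB and COBL9, named after their values were seen, had at most 15.4, 6.14 and 1.91 in any library.

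CXC proteins bind DNA through a pair of cysteine-rich motifs joined by a short spacer. In animals the family member LIN54 brings the DREAM complex, a repressor and activator of cell cycle genes, to its target promoters. In Arabidopsis, TSO1 keeps cell division in order in meristems and floral organs, TCX3 (also called SOL1) acts with TCX2 in the stomatal lineage, and TCX6 acts with TCX5 in a DREAM-type complex that represses genes of DNA methylation. Plant DREAM-type complexes join CXC proteins with MYB3R, E2F and DP factors and with ALY proteins. Each entry gathers those quailbush transcripts that the authors matched to 1 Arabidopsis protein. How the matching was done is not given in the sources used here, and reads of similar transcripts could have been split between paralogs.

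TCX3 was read in every TC10 and TC20 library and in no TC15 library. It had 33.3 normalised reads (35 reads) in TC10 plant 2 and 27.0 (28 reads) in TC10 plant 4. It had 0 reads in TC15 plants 2, 6 and 10. It had 41.5 (41 reads) in TC20 plant 3, 47.2 (54 reads) in TC20 plant 5 and 127 (117 reads) in TC20 plant 9. The groups did not overlap: each TC20 library was above both TC10 libraries, and every TC15 library was below all the others. Among all tested entries, 12.3% were lower in TC15 than in TC10 without overlap, 6.98% higher in TC20 than in TC15 and 9.31% higher in TC20 than in TC10, and nothing is read from this for TCX3, whose values chose it. TC20 plant 9 stood apart within its treatment. Its exact Poisson 95% interval of 105 to 152 normalised reads did not reach those of TC20 plant 3 (29.8 to 56.4) and TC20 plant 5 (35.5 to 61.6), and such intervals cover counting error only.

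At the pooled TC10 rate, 32.4, 24.6 and 34.2 reads would fall in TC15 plants 2, 6 and 10, and at the pooled TC20 rate 74.5, 56.6 and 78.7. A count of 0 allows up to 3 reads per library, which is 2.80, 3.68 and 2.65 normalised reads in the same order. With 3 reads over the pooled TC15 libraries as the floor, the pooled TC10 rate of TCX3 was 30.4-fold this floor, and its pooled TC20 rate 69.9-fold. A floor of 3 reads in each library would give smaller ratios. The ratios carry no counting error of TC10 or TC20 and no spread between plants, so they are not lower limits for the treatments. Leaving out TC15 plant 2 or TC15 plant 10 brought the TC10 ratio to 19.6 or 19.0. The TC20 ratio was 45.1 or 43.7 when the same plants were left out and 44.9 when TC20 plant 9 was.

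**Figure D1:**
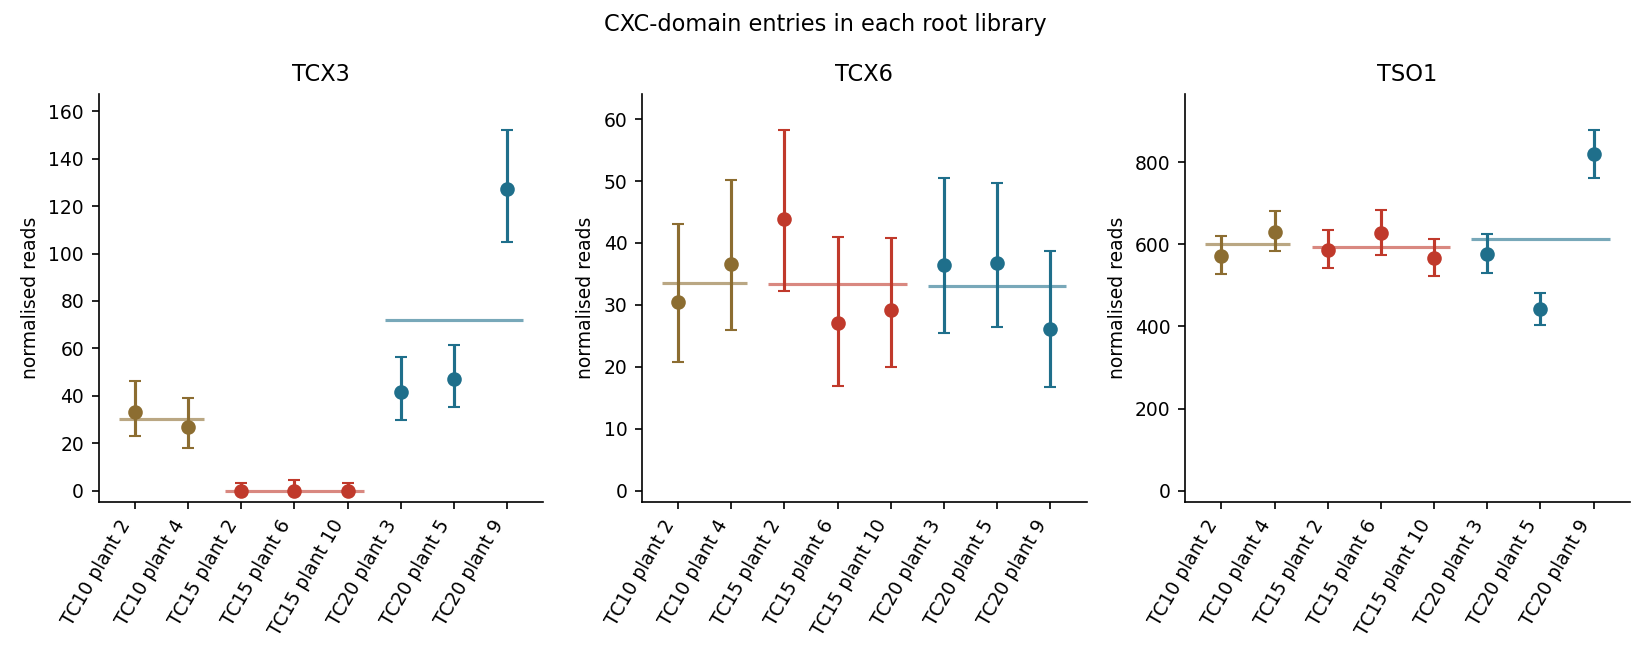
Normalised reads (y axis, from 0) of TCX3, TCX6 and TSO1 in each of the 8 root libraries (x axis), coloured by treatment. Bars are exact Poisson 95% intervals of the reads and horizontal lines are treatment means; TCX3 is at 0 in the 3 TC15 libraries while TCX6 (26.1 to 43.8) and TSO1 (442 to 819) are read in all 8.

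TCX6 did not share the loss of TCX3. It had 30.5 and 36.6 normalised reads in TC10 plants 2 and 4. In TC15 it had 43.8 in plant 2, 27.0 in plant 6 and 29.1 in plant 10. In TC20 it had 36.5 in plant 3, 36.7 in plant 5 and 26.1 in plant 9. Its highest value was in a TC15 library and its lowest in a TC20 library, and all treatments overlapped. The mean was 33.3 ± 9.17 in TC15 (SD, n = 3), 33.1 ± 6.09 in TC20 (SD, n = 3) and 33.5 ± 4.32 in TC10 (SD, n = 2).

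TCX6 and TCX3 rested on nearly the same number of reads, 274 and 275 over the 8 libraries, so both were measured at the same depth. The coefficient of variation of TCX6 over the 8 libraries was 18.3%, where counting error at its mean read number gives 17.1%. That of TCX3 was 122%, which follows from the zeros for which it was chosen, so nothing is read from it. Of 327 tested entries with a mean within 1.5 times that of TCX6, 318 (97.2%) varied more than TCX6 did, so TCX6 was among the steadier entries of its abundance.

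TSO1 was also read at similar levels in every treatment. It had 572 and 631 normalised reads in TC10 plants 2 and 4. In TC15 it had 587 in plant 2, 628 in plant 6 and 566 in plant 10. In TC20 it had 575 in plant 3, 442 in plant 5 and 819 in plant 9. The lowest and the highest library were both of TC20, and the range of TC20 took in every value of the other treatments. The mean was 594 ± 31.2 in TC15 (SD, n = 3), 612 ± 191 in TC20 (SD, n = 3) and 601 ± 41.9 in TC10 (SD, n = 2). Its coefficient of variation was 17.4%, against 4.06% from counting error, so plants differed in TSO1 beyond counting error, with no difference detected between treatments. Of 1084 entries of similar mean, 53.0% varied more.

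Neither relative passed a test between treatments. Across TC10, TC15 and TC20, the adjusted p of the limma F test was 0.998 for TCX6 and 0.998 for TSO1 (unadjusted 0.995 and 0.996). Of the 4801 entries tested, only 18 had a larger p than TCX6 and 10 a larger p than TSO1. In TC15 against TC10 the log2 change was -0.04 (SE 0.38, adjusted p = 0.987) for TCX6 and -0.02 (SE 0.25, adjusted p = 0.991) for TSO1. In TC20 against TC15 it was 0.01 (SE 0.34) and -0.0013 (SE 0.22), both with an adjusted p of 0.999. In TC20 against TC10 it was -0.03 (SE 0.38) and -0.02 (SE 0.25), both with an adjusted p of 0.989. The number of relatives past the threshold was 0 of 2 in the F test and in each pair with limma, 0 with edgeR and 0 with DESeq2, and none had an unadjusted p under 0.05. Limma called 0.0% of all entries in the F test, 0.0% in TC15 against TC10, 0.0208% in TC20 against TC15 and 0.0% in TC20 against TC10. At an unadjusted p under 0.05 the shares of all entries were 5.14%, 6.62%, 5.83% and 4.29% in the same order, and DESeq2 called 0.694%, 0.861%, 0.214% and 0.277% of those with an adjusted p. TCX6 and TSO1 overlapped between the treatments in each pair, where 24.7% of all tested entries did not overlap in TC15 against TC10, 12.9% in TC20 against TC15 and 18.5% in TC20 against TC10.

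The intervals bound how far a relative could have followed TCX3. For TC15 against TC10 the 95% interval of the fold on the log2(value + 1) scale was 0.529 to 1.80 for TCX6 and 0.662 to 1.47 for TSO1. For TC20 against TC15 it was 0.581 to 1.73 for TCX6 and 0.699 to 1.43 for TSO1. A fall in TC15 below 0.529 of the TC10 level of TCX6 lies outside its interval. Changes inside the interval cannot be told from none with 2 or 3 plants per treatment. The intervals are not adjusted for the number of entries tested, so a change beyond them could also have missed the threshold. On the same scale TCX3 had log2 changes of -4.95 in TC15 against TC10, 6.00 in TC20 against TC15 and 1.05 in TC20 against TC10. In both pairs with TC15, each of the other 4800 tested entries had a smaller change in size than TCX3. These are the values for which TCX3 was chosen, and its values in the pairs with TC15 depend on the pseudocount.

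**Figure D2:**
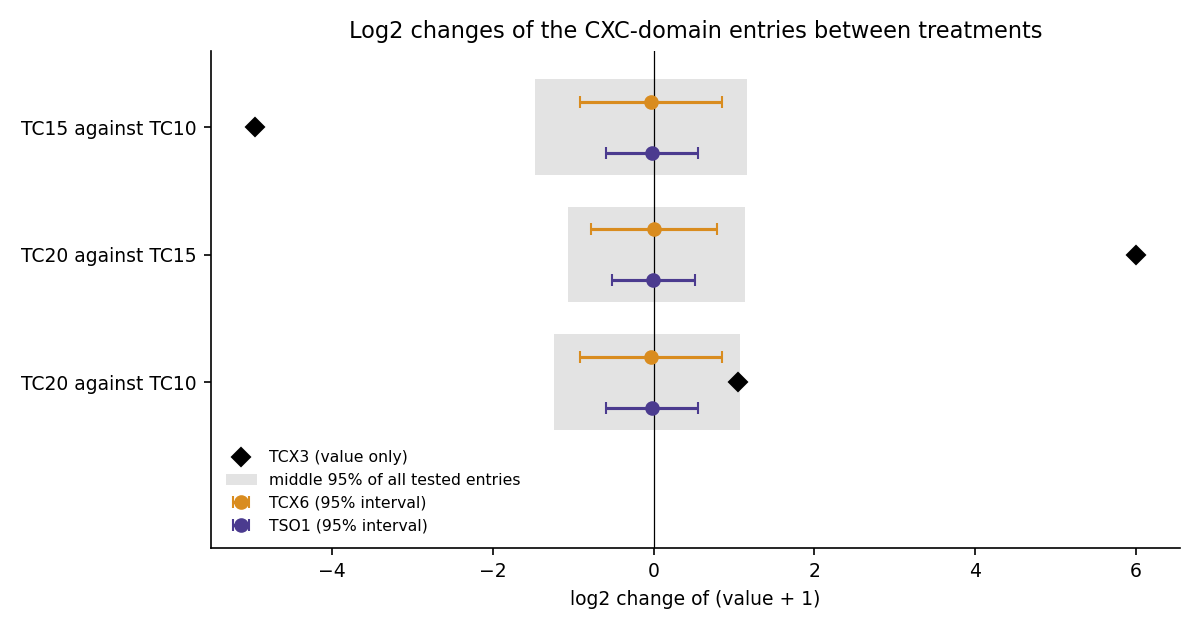
Log2 change of (value + 1) (x axis) in the 3 pairs of treatments (y axis) for TCX6 and TSO1 with limma 95% intervals and for TCX3 as values only. Grey bars hold the middle 95% of the 4801 tested entries; TCX6 and TSO1 sit within 0.04 of 0 in each pair, and TCX3 lies at -4.95 and 6.00 in the pairs with TC15.

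A relative that mirrored TCX3 would be higher in TC15, and neither passed in that direction. TCX3 and TCX6 together had 63.8 and 63.6 normalised reads in TC10 plants 2 and 4, and 78.0, 83.9 and 153 in TC20 plants 3, 5 and 9. In TC15 plants 2, 6 and 10 the same sum was 43.8, 27.0 and 29.1, all of it TCX6. The sums include the TCX3 values that chose it, so they are a description and nothing is read from their order. For TSO1 a rise by as many normalised reads as TCX3 had in TC10 was not detectable: the TC10 mean of TCX3, 30.2, is smaller than the SD of TSO1 among the TC15 plants, 31.2. Reads are not divided by transcript length, so equal reads of different genes, and sums of them, do not stand for equal amounts of transcript. The sum of TCX6 and TSO1 was 627 ± 29.8 in TC15 (SD, n = 3), 645 ± 185 in TC20 (SD, n = 3) and 635 ± 46.2 in TC10 (SD, n = 2).

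TCX3 took 5.25% of the reads of the 3 entries in TC10 plant 2 (Wilson 95% interval 3.80 to 7.21%) and 3.88% in TC10 plant 4 (2.70 to 5.56%). Its share was 6.36% in TC20 plant 3 (4.72 to 8.51%), 8.99% in TC20 plant 5 (6.95 to 11.5%) and 13.1% in TC20 plant 9 (11.0 to 15.4%). In TC15 plants 2, 6 and 10 the upper ends of the intervals were 0.565%, 0.716% and 0.566%. In TC20 plant 9 TCX3 and TSO1 both had their highest value and TCX6 its lowest, so the ratio of TCX6 to TSO1 was lowest there (0.0318, against 0.0431 to 0.0832 in the others).

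No relation between TCX6 and TSO1 was detected over the 8 libraries. Pearson's r of log2(value + 1) was -0.507 (exact permutation p = 0.194) and Spearman's rho was -0.357 (exact permutation p = 0.389), the only relation of this kind computed. Without TC15 plant 2 and TC20 plant 9, the libraries farthest from the median of TCX6, r was -0.398 (exact permutation p = 0.497). Within treatments, with each treatment's mean taken off, r was -0.511. No r across libraries is tested for TCX3, since its values fall into the TC15 libraries at 0 and 5 others.

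The zeros of TCX3 can be set beside those of other entries, as a description from which nothing is read, since this pattern chose TCX3. Of 332 other entries with a mean within 1.5 times that of TCX3 (23.0 to 51.8 normalised reads), 307 were read in all 8 libraries, 16 were at 0 in 1 library, 4 in 2 libraries and 5 in 3 or more. None of these 332 was at 0 in exactly the TC15 libraries. PSD3, named after its values were seen, was at 0 in TC15 plants 2 and 10 and in TC20 plant 3, and had 24.6 to 155 in the others. TA11B, also named after its values were seen, was at 0 in TC15 plants 2 and 10 and had 33.2 in TC15 plant 6 and 15.7 to 52.1 in the others. Over all 5164 entries, TCX3 alone was at 0 in TC15 and read in each of the 5 other libraries. The same pattern was held by 2 entries for TC10, DYAD with 9 reads over all libraries and the locus-coded Y1112 with 95 reads (8.40 to 34.4 normalised reads where it was read). For TC20 it was held by 3, DCE5, RL103 and YUC3, with 7 to 35 reads each, and TCX3 had 275. No entry was read in each TC15 library and at 0 in the 5 others.

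**Figure D3:**
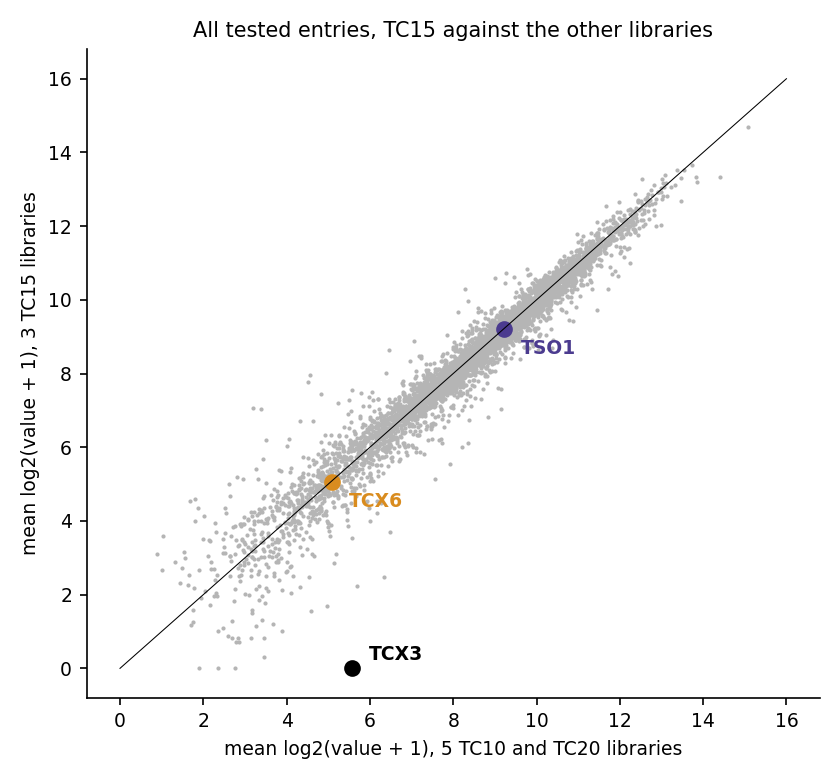
Mean log2(value + 1) in the 3 TC15 libraries (y axis) against that in the 5 TC10 and TC20 libraries (x axis) for the 4801 tested entries, with the line of equal means. TCX6 and TSO1 lie on the line, and TCX3 lies at 0 on the y axis, far below entries of the same abundance.

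The TC15 plants were not apart from the others in root metals. Root zinc was 373, 565 and 1075 ug/g in TC15 plants 2, 6 and 10, with TCX3 at 0 in each, and 491 and 637 ug/g in TC10 plants 2 and 4, where TCX3 was read. Both TC10 values lie within the range of TC15. In TC20 root zinc was 215 ug/g in plant 3, 277 in plant 5 and 174 in plant 9, so the plant with the most TCX3 had the least zinc of the 8. Every TC20 plant was below every TC15 plant in root zinc, so zinc and treatment are not separated in that pair. Root arsenic was 36 to 216 ug/g and root lead 10 to 56 ug/g in TC15, which overlap the 65 to 171 and 31 to 70 ug/g of the other 5 plants. Height was 62 to 89 cm in TC15 and 51 to 91 cm in the others. The stress score, whose scale is not explained in the labels, was 3, 4 and 4 in TC15 and 2 in the others except TC20 plant 5, which had 3 with TCX3 at 47.2.

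The relatives had no detectable slope on root zinc. The log2 change per doubling of zinc was -0.03 for TCX6 (SE 0.17, 95% interval -0.42 to 0.36, adjusted p = 0.981) and -0.06 for TSO1 (SE 0.11, 95% interval -0.31 to 0.19, adjusted p = 0.951). The number past the threshold was 0 of 2 with limma, none had an unadjusted p under 0.05, and edgeR and DESeq2 called 0 of 2. Of all entries limma called 0.0%, DESeq2 0.229%, and 4.25% had an unadjusted p under 0.05 with limma.

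The partners of CXC proteins in DREAM-type complexes were read in all 8 libraries. Of the list, 6 entries were measured and tested: DPB, the E2FA and E2FB factors, the MYB factor MB3R1 and the ALY proteins ALY2 and ALY3. None passed over all entries with limma in the F test or in a pair, and edgeR and DESeq2 called 0 of 6. DPB was the 1 entry with an unadjusted limma p under 0.05, as were 4.29 to 6.62% of all tested entries per test. The median log2 change of the 6 was 0.14 in TC15 against TC10, 0.04 in TC20 against TC15 and 0.18 in TC20 against TC10, beside -0.0047, 0.01 and 0.0015 over all entries tested. Without TC20 plant 9 the median in TC20 against TC15 became 0.10.

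DPB, which pairs with E2F factors to bind DNA, changed in the direction opposite to TCX3 in the pairs with TC15. It had 1067 and 1143 normalised reads in TC10 plants 2 and 4. In TC15 it had 1678, 1386 and 1514 in plants 2, 6 and 10. In TC20 it had 1119, 1207 and 1193 in plants 3, 5 and 9. Each TC15 library was above each of the other 5, as in 2.96% of all tested entries, and the reverse, with each TC15 library below the other 5 as for TCX3, held for 3.02%. Pair by pair, 12.4% of tested entries were higher in TC15 than in TC10 without overlap, and 5.89% were lower in TC20 than in TC15. Its log2 change was 0.46 in TC15 against TC10 (adjusted p = 0.731) and -0.38 in TC20 against TC15 (adjusted p = 0.79), so DPB did not pass. In TC20 against TC10 the changes had the same sign, 0.09 for DPB (adjusted p = 0.955) and 1.05 for TCX3.

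E2FA, which drives entry into DNA replication, had 109 and 113 normalised reads in TC10, 110 to 116 in TC15 and 134 to 159 in TC20. All its TC20 libraries were above all others, where 6.98% of tested entries were higher without overlap in TC20 against TC15 and 9.31% in TC20 against TC10, and its adjusted p in the F test was 0.81. MB3R1 had 478 and 713 in TC10, 533 to 642 in TC15 and 651 to 798 in TC20. E2FB, with 177 to 264, and ALY3, with 358 to 483, overlapped between TC15 and the other treatments. ALY2 had 623 and 626 in TC10, 646 to 752 in TC15 and 532 to 717 in TC20. Its TC15 libraries were above both TC10 libraries, as in 12.4% of all tested entries (adjusted p = 0.84), and overlapped those of TC20. None of the 6 was at 0 in any library.

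No cell cycle entry passed between treatments. Of 25 measured, 23 were tested. None passed over all entries with limma in the F test or in a pair, and edgeR and DESeq2 called 0. CCD11 was the 1 entry with an unadjusted limma p under 0.05 in any of these, beside 4.29 to 6.62% of all tested entries per test. Their median log2 change was 0.03 in TC15 against TC10, 0.28 in TC20 against TC15 and 0.40 in TC20 against TC10. Without TC20 plant 9 the last 2 became 0.09 and 0.22. The most abundant were the D-type cyclin CCD31, with 517 to 1717 normalised reads, the A-type cyclin CCA22, with 203 to 461, and the checkpoint protein BUB31, with 184 to 477.

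TC20 plant 9, the library with the most TCX3 and TSO1, also had the most cell cycle reads. It held the highest value of 14 of the 23 entries (60.9%), where it held the highest value of 21.1% of all tested entries. Examples, chosen after their values were seen, are the cytokinesis syntaxin SY111 (KNOLLE), with 332 normalised reads there against 36.2 to 111 elsewhere. The B-type cyclin CCB23 had 329 there against 22.9 to 186, and the mitotic kinase AUR1 322 against 57.2 to 144. The part of the cell cycle entries in the TCX3 values was not tested. The mean log2(value + 1) of the 23, centred on the 8 libraries, was -0.10, 0.14 and -0.39 in TC15 plants 2, 6 and 10. The TC10 plants 2 and 4 had -0.52 and 0.22, and it was 0.30, -0.40 and 0.74 in TC20 plants 3, 5 and 9. The TC15 values lie within the range of the other 5 libraries.

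**Figure D4:**
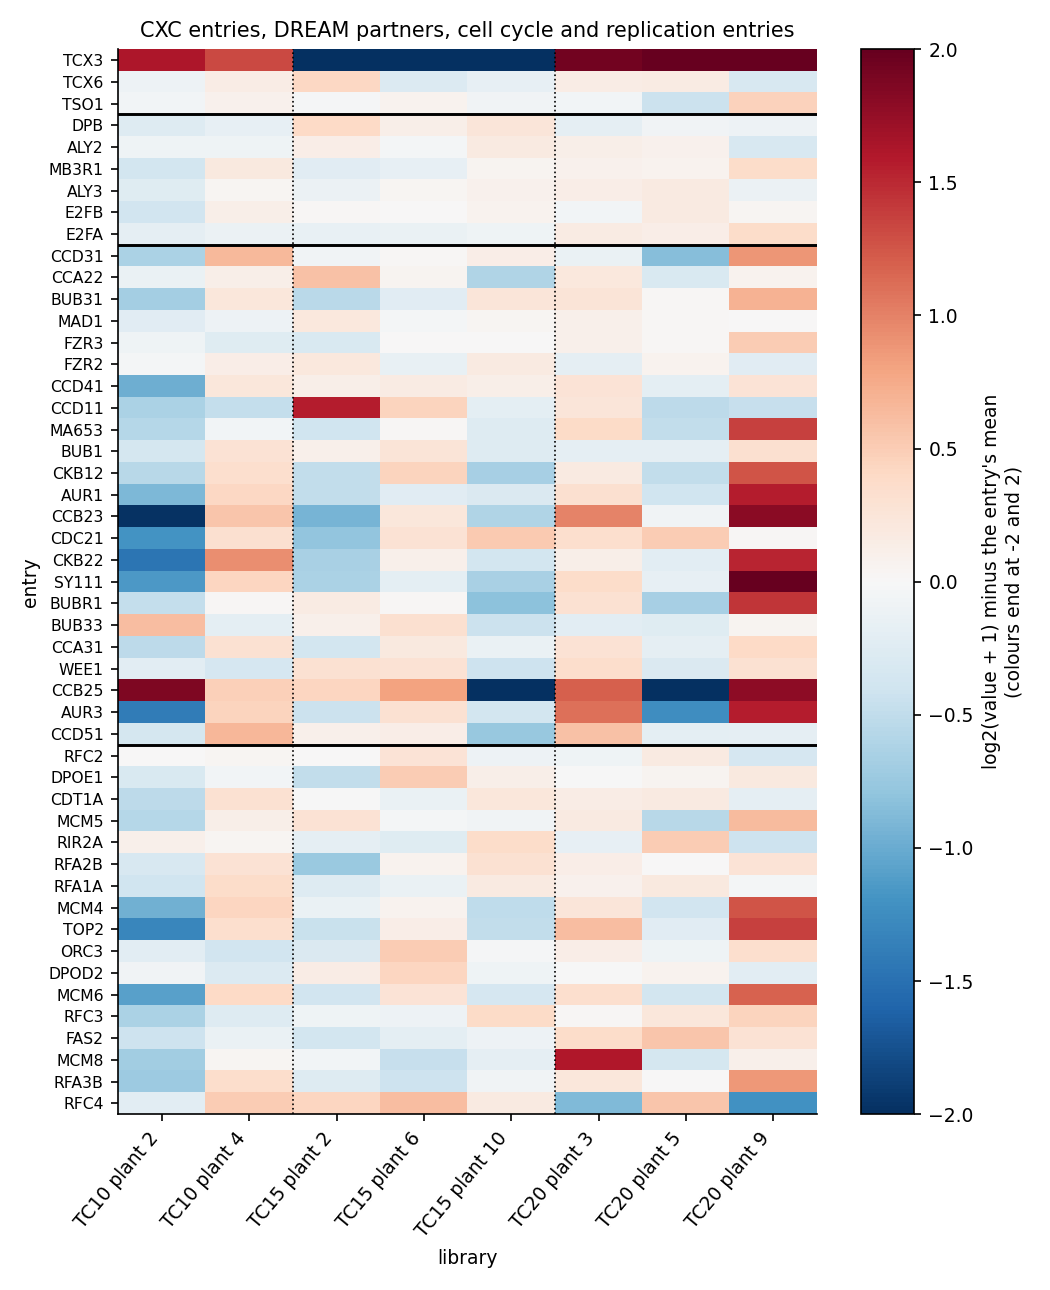
Log2(value + 1) minus each entry's own mean (colour) in the 8 libraries (columns, split by treatment) for, from the top, the CXC entries, the 6 DREAM partners, the 23 tested cell cycle entries and the 17 DNA replication entries (rows). TCX3 is low across the TC15 columns, and many cell cycle entries are high in TC20 plant 9, which holds the highest value of 14 of the 23.

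DNA replication entries, 17 of them, gave medians of 0.14, 0.15 and 0.32 in TC15 against TC10, TC20 against TC15 and TC20 against TC10. Without TC20 plant 9 the last of these became 0.20. None passed with limma, edgeR or DESeq2. FAS2 and RFC3 had an unadjusted limma p under 0.05 in at least 1 of the tests between treatments, beside 4.29 to 6.62% of all tested entries per test. The clamp loader RFC2 had 413 to 634 normalised reads, the polymerase subunit DPOE1 351 to 703 and the licensing factor CDT1A 330 to 582. The helicase subunit MCM4, named after its values were seen, had 605 in TC20 plant 9 against 130 to 342 elsewhere.

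The list of DNA methylation genes had no entry past the threshold. It was matched by name and is not limited to genes that TCX6 and TCX5 repress in Arabidopsis. Of 18 measured, 17 were tested, and none passed with limma, edgeR or DESeq2. ROS1, SUVH2 and MBD2 had an unadjusted limma p under 0.05 in at least 1 of the tests between treatments. Per test, 4.29 to 6.62% of all tested entries had one, and nothing is read from the 3. The medians were 0.02, -0.10 and -0.09 in the same order of pairs, and the last became -0.04 without TC20 plant 9. The MBD-family protein MBD4 had 1799 to 2244 normalised reads, the de novo methyltransferase DRM2 1261 to 1737 and the histone methyltransferase SUVH3 1271 to 1494. The chromomethylase CMT3, which maintains methylation outside CG sites and is a target of TCX5 and TCX6 in Arabidopsis, had 157 to 416 in TC15, 205 and 311 in TC10 and 194 to 634 in TC20, with its highest value in TC20 plant 9. Of the 17, SUVH2 and SUVH4 were higher and MBD6 lower in each TC15 library than in the other 5, beside the 2.96% and 3.02% of all tested entries. DDM1, a chromatin remodeller that methylation depends on, had 138 to 271 in TC15, 220 and 235 in TC10 and 146 to 330 in TC20.

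Another CXC region is carried by the Polycomb histone methyltransferases, of which EZA1 was measured. It had 111 and 121 normalised reads in TC10, 28.0, 68.8 and 53.8 in TC15 plants 2, 6 and 10, and 10.1, 83.9 and 71.7 in TC20 plants 3, 5 and 9. Both TC10 libraries were above all others, where 12.3% of tested entries were lower without overlap in TC15 and 9.23% in TC20 than in TC10. The log2 change was -1.29 in TC15 against TC10 (adjusted p = 0.778) and -1.52 in TC20 against TC10 (adjusted p = 0.918), so it did not pass. The other 5 Polycomb group entries, with VRN2, EMF2 and FIE the most abundant, had log2 changes from -0.43 to 0.15 in the pairs. None of the 6 passed with limma, edgeR or DESeq2, and none had an unadjusted p under 0.05.

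By the correlation of log2(value + 1) over the 8 libraries, the entries most like TCX3 were BABL (r = 0.96), ISAM2 (r = 0.94), MTHR2 (r = 0.93), KMS1 (r = 0.92) and FACE1 (r = 0.91). BABL, a blue copper protein, had 1415 to 2017 normalised reads in TC15 and 3100 to 5149 in the others. MTHR2, a methylenetetrahydrofolate reductase of one-carbon metabolism, had 3707 to 4284 in TC15 and 5071 to 6468 in the others. FACE1, a protease that trims prenylated proteins, had 1127 to 1141 in TC15 and 1251 to 1324 in the others. All 5 were read in each TC15 library, at lower values than in any of the other 5 libraries. Lower values in each TC15 library than in any other held for 3.02% of all tested entries. The 5 were picked by r with TCX3, which was itself lowest in TC15, so nothing is read from their direction there.

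The entries most opposite to TCX3 were BLH1, VAR3, FB309, PP272 and ATM, with r from -0.94 to -0.93. BLH1, a homeodomain factor of the BEL1 type, had 3081 to 4069 normalised reads in TC15 and 1484 to 2472 in the others. ATM, the kinase that signals DNA double-strand breaks, had 2816 to 3501 in TC15 and 1740 to 2371 in the others. The highest r of any entry was 0.98 with TSO1 and 0.90 with TCX6. Of 4800 other entries, 11 had an r of at least 0.9 with TCX3 and 14 of at most -0.9, and for TSO1 the numbers were 5 and 8 and for TCX6 0 and 4. With 1 library left out at a time, r ranged from 0.89 to 0.97 for the 5 like TCX3 and from -0.97 to -0.91 for the 5 opposite to it. These entries were picked by r in the same libraries. Leaving out 1 library keeps TCX3 at 0 in TC15 and above 0 elsewhere, so nothing is read from these ranges. The counts for TCX3 at an r of 0.9 rest on the same pattern, which chose it. They are therefore not compared with those of TSO1 and TCX6. Higher values in each TC15 library than in any other held for 2.96% of all tested entries.

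**Figure D5:**
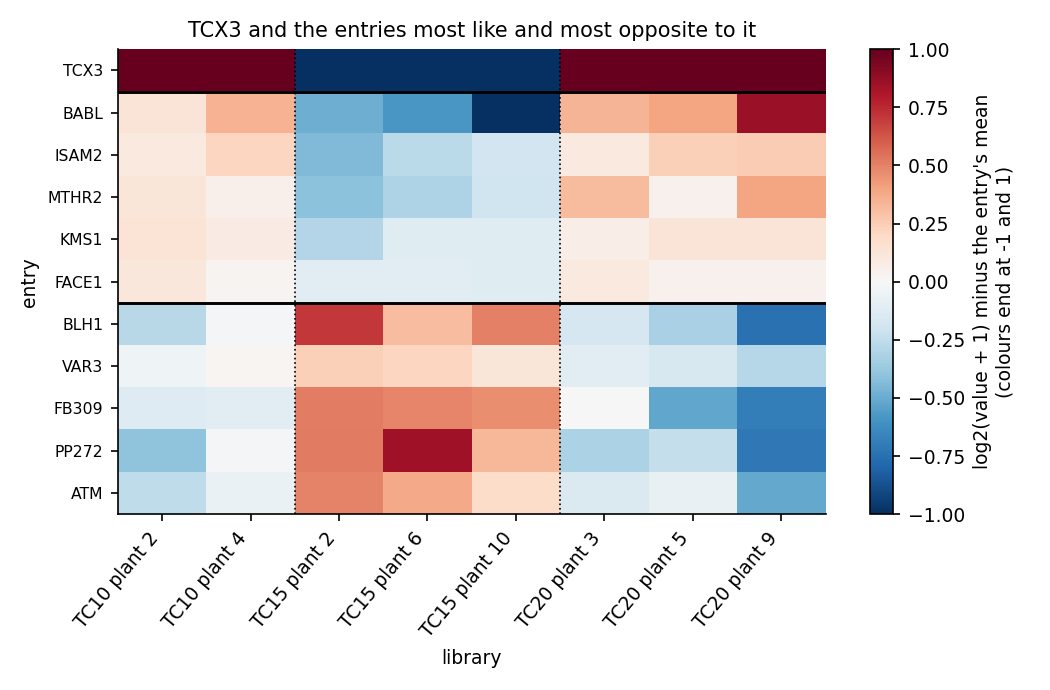
Log2(value + 1) minus each entry's own mean (colour, ending at -1 and 1) in the 8 libraries (columns) for TCX3, the 5 entries with the highest r with it and the 5 with the lowest (rows). The 5 like TCX3 are low and the 5 opposite to it are high in the TC15 columns, by far less than TCX3 itself. These entries were picked by r with TCX3, so nothing is read from their direction in TC15.

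The entries most like TCX6 were the receptor kinase ALE2 (r = 0.90), HACL (r = 0.89) and the homeodomain protein SHH2 (r = 0.86). Those most like TSO1 were NLTL2 (r = 0.98), ACFR4 (r = 0.96) and TBL19 (r = 0.95). No entry was named for more than 1 of the 3 CXC entries. NLTL2, a lipid-transfer-like protein, had 295 normalised reads in TC20 plant 9 and 139 in TC20 plant 5, its highest and lowest values, as for TSO1.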

How the data were processed

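Root RNA of quailbush plants was sequenced as stranded total RNA libraries, per the labels' protocols. The submitters' processing notes list the tools kallisto, DESeq2, FastQC and Trim Galore. Not given in the sources used here are tool versions, the reference and the naming of transcripts. The deposited files hold 1 normalised signal per entry and library. Every value is a whole multiple of 1 factor per library (100% within 0.001 of a read), so reads were recovered by division. Entries that a file does not list were set to 0.

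The main test was limma 3.58.1 (R 4.3.3), trended empirical Bayes, on log2(value + 1). Entries needed 10 normalised reads or more in 2 or more libraries, which 4801 entries and all 3 members reached. The test came with Benjamini-Hochberg adjustment over all of them and a threshold of 0.05. The 8 libraries shared 1 estimate of the spread, and p-values measure the spread between plants. edgeR 4.0.16, DESeq2 1.42.0 and limma-voom were run on recovered reads as alternatives, DESeq2 without a filter. The fit was tested on simulated data. The Poisson and Wilson intervals and the floors cover counting error only, and the reads carry no molecular identifiers. The limma intervals rest on the spread between plants. The correlation of TCX6 with TSO1 was tested by exact permutation of the libraries (Python 3.11.15, two-sided).

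The members and lists were chosen with earlier results of these data known. Named were all members, all DREAM partners, the 3 most abundant entries of the other gene lists, and the 5 entries most like and most opposite to TCX3 (3 most like for each relative), locus codes left out. Contrary to this rule, the organelle-encoded list is given by its summary alone. Among others, CMT3, DDM1, EZA1 and list entries with an unadjusted p under 0.05 were also named outside the rule. SUVH2, SUVH4 and MBD6 were named for their values in TC15. Entries matched to a list by a name with another meaning, such as proteasome subunits among the green-tissue markers, were taken out by name. The organelle-encoded list (6 tested entries), a sign of RNA makeup, had median log2 changes of 0.30 in TC15 against TC10, -0.97 in TC20 against TC15 and -0.57 in TC20 against TC10, with a mean 2.00 above the centre in TC15 plant 2. The root marker list (6 tested of 9 measured) had medians of -0.10, -0.12 and 0.11 (the last 0.19 without TC20 plant 9), and the green-tissue list (2) of -0.48, -0.58 and -1.06. No member of these lists passed.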

Additional observations from a re-analysis of the deposited data

How the results depend on the processing

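No relative of TCX3 passed the threshold in any of the 5 tests under any alternative run: no filter, a value of at least 10 in all libraries, pseudocounts of 0.1 and 10, TMM scaling, edgeR, DESeq2, limma-voom, only the 2 groups compared, treatment as a covariate of the zinc slope, and each library left out. Their lowest adjusted p over these was 0.758. DESeq2 gave no adjusted p for TCX6 in TC15 against TC10. The log2 changes of the relatives are so near 0 that their sign changed with the setting. Over the alternatives they ranged from -0.24 to 0.21 for TCX6 and from -0.25 to 0.21 for TSO1 in the pairs, within the spread between plants in each case. For TSO1 the ends were set by TC20 plants 9 and 5 and for TCX6 by TC15 plant 2. With 1 library left out, the ratio of TCX3 to the pooled TC15 floor ranged from 19.0 to 33.6 for TC10 and from 43.7 to 83.4 for TC20. With library totals as the scale it was 27.6 and 67.3. Leaving out a TC10 library leaves 1, whose spread is then assumed to be that of the other groups. The low reads of TCX3 and TCX6 limit what could be seen in them. No paired analysis was possible because the plants of different treatments share fewer than 2 numbers and nothing ties equal numbers together.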
